A study of Mus musculus with 12 samples.

Results

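The respiratory chain genes described here were the protein-coding rows of the read-count table named Nduf, Sdha to Sdhd, Uqcr, Cox4 to Cox8, Atp5 or mt- followed by Nd, Co, Cytb or Atp. The rule took 107 of 54532 genes, 94 of them nuclear and 13 encoded in mitochondrial DNA, and left out 13 rows of pseudogenes and other non-coding types with such names. By complex, the nuclear and mitochondrial members numbered 44 and 7 for complex I, 4 and 0 for complex II, 8 and 1 for complex III, 20 and 3 for complex IV and 18 and 2 for complex V. Ndufa4 and Ndufa4l2 were counted with complex IV, where the Ndufa4 protein acts. Of the 107 genes, 102 passed the filter on low counts. The others were Cox6b2, Cox7b2, Cox8b, Cox8c and an extra row also named Atp5o.

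The data were poly-A mRNA-seq of 12 dissociated whole intracranial tumors, 1 per mouse, from WT C57Bl6 mice aged 6 to 10 weeks that carried B16-OVA melanoma cells on the flank and, from 3 days later, B16-OVA/Fluc cells in the striatum. B16-OVA is a mouse melanoma line made to express the model antigen ovalbumin. Its Fluc form also carries firefly luciferase. IgG mice received control antibodies, whereas the other 3 groups received anti-PD-1 with anti-CTLA-4 (PC blockade) on days 5 and 7, and all tumors were taken on day 8 after the brain implant. PC-treated mice were split by the CD8+ T cell abundance of these same tumors into CD8H (high) and CD8L (low). In the dNK group NK cells were also depleted with an antibody given in the sample labels as anti-Asialo-GM2 and in the study's methods as anti-Asialo-GM1. Each group held 3 tumors. In such bulk tissue, fewer cells of a type and less RNA per cell cannot be told apart.

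Oxidative phosphorylation passes electrons from NADH (complex I) and succinate (complex II) through ubiquinone, complex III and cytochrome c to oxygen at complex IV, and ATP synthase (complex V) uses the proton gradient this builds. Most subunits are made from nuclear genes and imported, while mitochondrial DNA encodes core membrane subunits of every complex but complex II. The subunits of both origins must be assembled together, and tumors differ widely in how far they rely on this pathway.

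The libraries held 16336993 to 26416214 counts assigned to genes. The labels could be checked against markers. Cd8a measured 34.3 to 124 CPM, a count scaled to the library total, in the CD8H tumors and 0.182 to 8.56 CPM in the others, and Ncr1, an NK cell receptor gene, had 0 to 1 counts in the dNK tumors and 4 to 87 elsewhere. Melanocyte markers stood at a mean log2 CPM of 8.31 to 9.60 in every tumor. CD8H tumor 2 stood apart from the other 11. It had the highest mean of the 19 neuron markers (7.12 on the log2 CPM scale, against 2.49 to 6.13 in the other tumors), the highest mean of the 10 oligodendrocyte markers (6.55) and the lowest mean of the 10 melanocyte markers (8.31, against 9.16 to 9.60). The CPM values here were scaled by the TMM library factors.

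Transcript levels of the members spanned several orders of magnitude. In FPKM, counts scaled to gene length and library total, the median over genes of the mean of 12 tumors was 1046 for the mitochondrially encoded members, 363 for complex IV, 288 for complex III, 276 for complex V and 259.7 for complex II. In complex I it was 135 for the nuclear core subunits, 103 for the supernumerary subunits and 25.2 for the assembly factors. The highest deposited FPKM of a nuclear gene in each complex was that of Ndufs1 (278 FPKM), Sdha (589.6), Uqcr10 (418), Cox4i1 (897) and Atp5b (2799). The lowest tested were Ndufb2 (10.3), Sdhc (102), Uqcrfs1 (122), Cox7a1 (1.03) and Atp5s (13.5). These orders rest on the gene lengths behind the deposited FPKM, which can differ from annotated transcripts (771 against 2900 bases for Sdha, 1289 against 2661 for Ndufs1).

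Nuclear respiratory chain genes were lowest in CD8H tumors and highest in dNK tumors. Of the 89 nuclear members tested, 82 had their lowest group mean CPM in CD8H and 80 their highest in dNK. For 68 of the 89 the group means ran upward in the order CD8H, IgG, CD8L, dNK. How often all genes showed such orders of groups or tumors was not counted, so these numbers describe the members only. Single tumors carried much of the order. CD8H tumor 2 was the lowest of all 12 tumors for 80 members, at a median of 0.629 times each member's 12-tumor median, while CD8H tumor 1 was at 0.950 and CD8H tumor 3 at 0.838. The highest tumor was dNK tumor 1 for 45 members and CD8L tumor 1 for 35, at medians of 1.39 and 1.34 times. The 3 IgG tumors lay between 0.922 and 1.00.

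**Figure D1:**
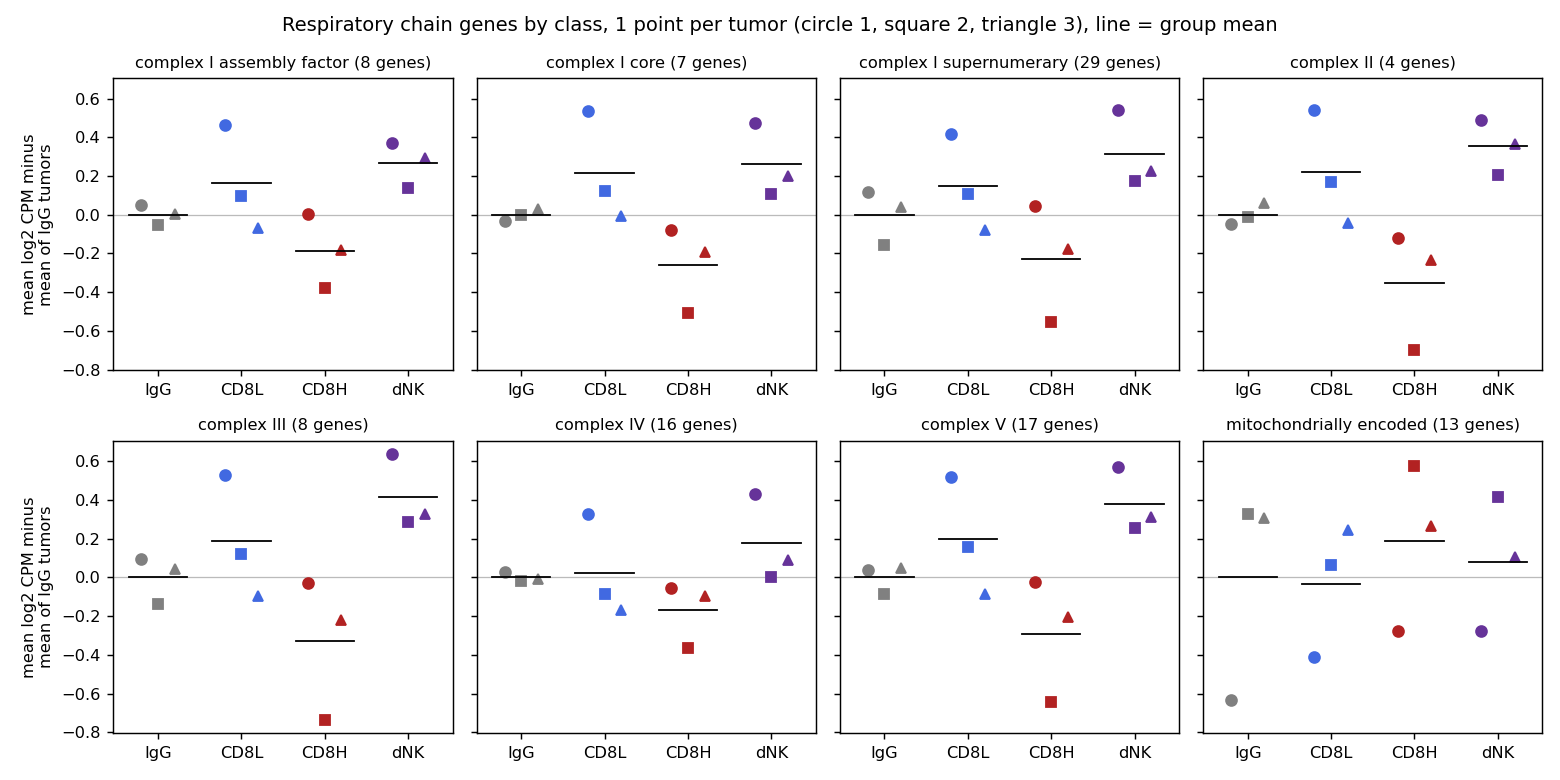
Mean log2 CPM of the tested genes of each class in each tumor, less the mean of the 3 IgG tumors; points are tumors (circle, square and triangle for tumors 1, 2 and 3) and lines are group means. In each of the 7 nuclear classes CD8H tumor 2 lies lowest, and in the mitochondrially encoded class tumor 1 of each group lies lowest within its group.

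Against the mean of the 3 other groups, 30 nuclear members were lower in CD8H tumors and 1 was higher. This was the edgeR quasi-likelihood test on counts, with p and Benjamini-Hochberg adjusted p of at most 0.05 taken as called. Of all 17320 genes tested, 11.9% were called lower and 14.4% higher in this comparison. The median log2 fold change was -0.42 over the 89 nuclear members and 0.050 over all genes. None of the 13 mitochondrially encoded members was called, and their median was 0.16, or -0.059 without CD8H tumor 2. By class, 4 of 4 complex II genes were lower, 4 of 8 in complex III, 7 of 17 in complex V, 3 of 7 nuclear core subunits of complex I, 7 of 29 supernumerary subunits, 2 of 8 assembly factors of complex I and 3 of 16 in complex IV. In 14 members all 3 CD8H tumors lay below the 9 other tumors, as 9.08% of all genes did. In 1 member they lay above, as 10.6% did.

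The calls leaned on CD8H tumor 2. Without it, 4 of the 30 remained, namely Ndufaf4, Ndufs1, Sdha and Ndufa4, and the calls over all genes went from 4551 to 2695. The class medians shrank without it, from -0.33 to -0.20 for assembly factors, from -0.39 to -0.22 for supernumerary subunits, from -0.41 to -0.24 for complex IV, from -0.40 to -0.31 for the nuclear core subunits, from -0.55 to -0.37 for complex II, from -0.52 to -0.33 for complex III and from -0.52 to -0.35 for complex V. Leaving out CD8H tumor 1 instead gave 59 nuclear members lower, CD8L tumor 3 54, IgG tumor 3 14, CD8L tumor 2 13 and CD8H tumor 3 12. In the same order, the calls over all genes were 4588, 7061, 3813, 3747 and 4126, against 4551 with every tumor. The calls over all genes thus hardly moved without CD8H tumor 1 and rose without CD8L tumor 3. Without IgG tumor 3, CD8L tumor 2 or CD8H tumor 3 both counts fell, the nuclear count by the larger share. With the neuron marker mean as a covariate, 39 nuclear members were lower and 1 was higher, with 5187 calls over all genes. Of the other marker lists, 8 of 8 T cell markers and 9 of 10 macrophage and microglia markers were higher in CD8H tumors and 2 of 10 melanocyte markers were lower. The median log2 fold change was 1.48 over the neuron markers (1 of 19 higher), 1.25 over the oligodendrocyte markers (1 of 10 higher), 1.18 over the astrocyte markers (1 of 8 lower) and -0.59 over the pericyte and smooth muscle markers (1 of 7 lower), and none of 4 endothelial and 5 erythroid markers was called. The mean log2 CPM of the macrophage and microglia markers was 6.30 to 6.66 in CD8H tumors and 3.71 to 5.60 elsewhere, and the part of these cells in the result was not tested.

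**Figure D2:**
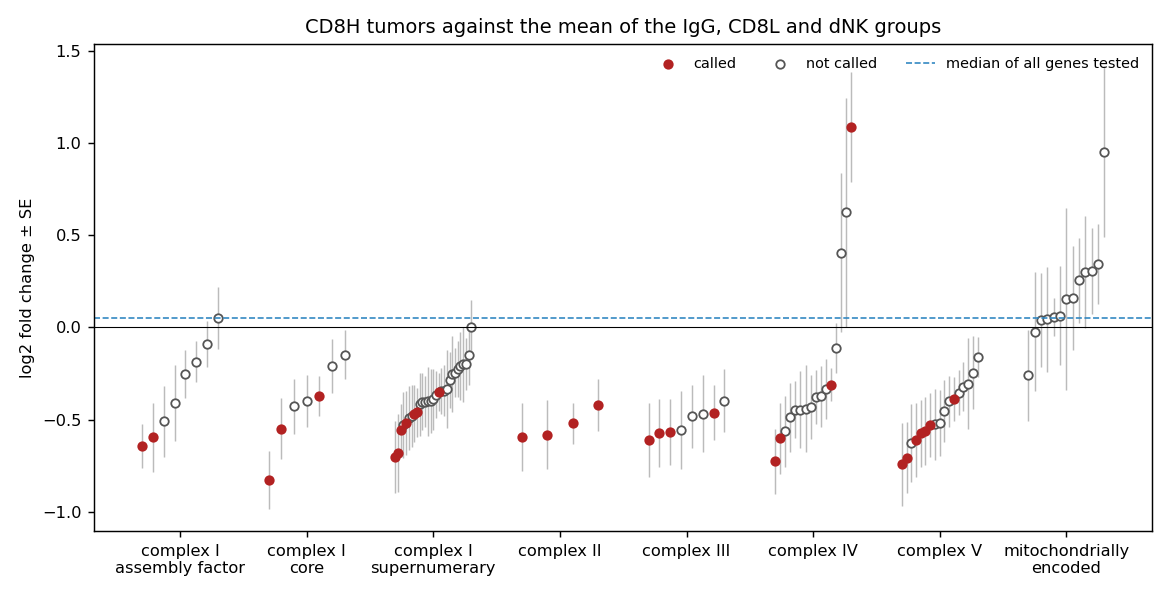
Log2 fold change of each tested member, CD8H less the mean of the other 3 groups, by class, with the standard error; filled points passed the test. All points of complexes II, III and V lie below 0, whereas 11 of the 13 mitochondrially encoded genes lie above it, of which 5 stay above 0 without CD8H tumor 2.

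Complex I was led by a core subunit and an assembly factor. Ndufs1, the iron-sulfur subunit at the NADH-oxidizing end of the enzyme, measured 303, 346 and 364 CPM in the IgG tumors, 516, 444 and 338 in the CD8L tumors, 240.5, 173 and 269 in the CD8H tumors and 452, 443 and 459 in the dNK tumors. All 3 CD8H tumors lay below the 9 others (log2 fold change -0.83, SE 0.16, adjusted p = 0.00414). Ndufaf4, an assembly factor that is not part of the finished enzyme, measured 63.8, 71.8 and 72.6 CPM in the IgG tumors, 98.7, 88.8 and 69.1 in the CD8L tumors, 53.5, 44.4 and 57.1 in the CD8H tumors and 96.3, 84.8 and 84.6 in the dNK tumors. Its CD8H tumors also lay below all others (log2 fold change -0.64, SE 0.12, adjusted p = 0.00371). Without CD8H tumor 2 the log2 fold change was -0.66 for Ndufs1 and -0.54 for Ndufaf4, with adjusted p of 0.0121 and 0.0153 from edgeR.

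The other called core subunits carry iron-sulfur clusters too. Ndufv2, of the NADH-oxidizing module, measured 139, 134 and 143 CPM in the IgG tumors, 193, 157 and 149 in the CD8L tumors, 139, 105 and 126 in the CD8H tumors and 192, 164 and 171 in the dNK tumors. CD8H tumor 1 was within the range of the IgG tumors and the other CD8H tumors were below all 9 (log2 fold change -0.37, SE 0.11, adjusted p = 0.0277). Ndufs8, which passes electrons on toward ubiquinone, measured 76.4, 80.4 and 82.2 CPM in the IgG tumors, 122, 88.3 and 77.7 in the CD8L tumors, 72.6, 49.7 and 64.5 in the CD8H tumors and 121, 86.7 and 87.8 in the dNK tumors. Here the CD8H tumors did not overlap the rest (log2 fold change -0.55, SE 0.16, adjusted p = 0.0326).

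Among the supernumerary subunits, which surround the core, the smallest p-values fell to genes of the membrane arm. Ndufb5 measured 114, 126 and 137 CPM in the IgG tumors, 195, 148 and 136 in the CD8L tumors, 116, 80.4 and 108 in the CD8H tumors and 187, 149 and 159.5 in the dNK tumors. CD8H tumor 1 lay just above IgG tumor 1 and the other CD8H tumors were below all 9 (log2 fold change -0.56, SE 0.14, adjusted p = 0.0175). Ndufb6 measured 57.1, 51.9 and 46.1 CPM in the IgG tumors, 85.5, 62.0 and 48.2 in the CD8L tumors, 46.0, 29.0 and 43.8 in the CD8H tumors and 96.0, 70.8 and 71.2 in the dNK tumors. The CD8H tumors lay below the 9 others, with CD8H tumor 1 only just below IgG tumor 3 (log2 fold change -0.70, SE 0.20, adjusted p = 0.0243). Ndufb10 measured 89.7, 83.6 and 94.0 CPM in the IgG tumors, 117, 86.2 and 87.4 in the CD8L tumors, 80.7, 59.3 and 70.0 in the CD8H tumors and 122, 93.3 and 95.3 in the dNK tumors. Its CD8H tumors lay below all 9 others (log2 fold change -0.46, SE 0.13, adjusted p = 0.0273). Ndufab1, Ndufb8, Ndufa6 and Ndufb11 were also lower, with log2 fold changes of -0.35, -0.68, -0.47 and -0.52. Ndufaf2, a late assembly factor, was the other assembly factor called, at 27.9, 21.2 and 21.7 CPM in the IgG tumors, 31.0, 24.7 and 18.0 in the CD8L tumors, 20.5, 13.4 and 17.3 in the CD8H tumors and 31.8, 26.8 and 29.4 in the dNK tumors (log2 fold change -0.59, SE 0.19, adjusted p = 0.0387). CD8L tumor 3 was within the range of its CD8H tumors.

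Complex II, succinate dehydrogenase, also serves the citric acid cycle and is wholly nuclear. All 4 of its genes were lower in CD8H tumors. Sdha, the flavin-bearing catalytic subunit, measured 419, 463 and 486 CPM in the IgG tumors, 552, 488 and 441 in the CD8L tumors, 355, 295 and 383 in the CD8H tumors and 542, 499 and 564 in the dNK tumors. No CD8H tumor reached any of the 9 others (log2 fold change -0.52, SE 0.11, adjusted p = 0.00746). The iron-sulfur subunit gene Sdhb measured 411, 366 and 407 CPM in the IgG tumors, 631, 467 and 425 in the CD8L tumors, 377, 215 and 343 in the CD8H tumors and 609, 454 and 499.6 in the dNK tumors. CD8H tumor 1 overlapped the lowest IgG tumor (log2 fold change -0.60, SE 0.18, adjusted p = 0.0370). Sdhc and Sdhd encode the membrane anchors that hold the heme. Sdhc measured 132, 131 and 139 CPM in the IgG tumors, 201, 153 and 128 in the CD8L tumors, 135, 101 and 115 in the CD8H tumors and 201, 154 and 176 in the dNK tumors (log2 fold change -0.42, SE 0.14, adjusted p = 0.0497) and Sdhd measured 157, 175 and 175 CPM in the IgG tumors, 259.9, 186 and 149.9 in the CD8L tumors, 160.5, 91.3 and 140.1 in the CD8H tumors and 236, 206 and 225 in the dNK tumors (log2 fold change -0.58, SE 0.19, adjusted p = 0.0420). For both anchors CD8H tumor 1 lay inside the range of the IgG and CD8L tumors. Without CD8H tumor 2, Sdha kept its call (log2 fold change -0.41, adjusted p = 0.0226) while Sdhb, Sdhc and Sdhd had adjusted p of 0.124, 0.203 and 0.170 from edgeR.

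In complex III all 8 nuclear genes had negative log2 fold changes, between -0.61 and -0.40, and Uqcrfs1, Uqcrh, Uqcrc2 and Uqcr11 were lower. Uqcrfs1, the Rieske iron-sulfur protein, measured 152, 168 and 160.3 CPM in the IgG tumors, 248, 176 and 143 in the CD8L tumors, 149, 91.5 and 129 in the CD8H tumors and 223, 177 and 199 in the dNK tumors (log2 fold change -0.56, SE 0.18, adjusted p = 0.0398). Uqcrh, the hinge protein beside cytochrome c1, measured 139, 142 and 139.9 CPM in the IgG tumors, 238, 176 and 127 in the CD8L tumors, 151, 90.7 and 119.6 in the CD8H tumors and 239, 219.7 and 226 in the dNK tumors (log2 fold change -0.57, SE 0.18, adjusted p = 0.0416). Uqcrc2, a core protein, measured 193, 217 and 231 CPM in the IgG tumors, 343, 245 and 237 in the CD8L tumors, 200.0, 141 and 204 in the CD8H tumors and 296, 243 and 265 in the dNK tumors (log2 fold change -0.46, SE 0.15, adjusted p = 0.0431). In these 3 genes CD8H tumor 2 was the lowest of the 12 tumors and CD8H tumor 1 overlapped the other groups. For Uqcrc2, CD8H tumor 3 (204 CPM) also lay above IgG tumor 1 (193). None of the 3 genes kept its call without CD8H tumor 2, where their adjusted p values from edgeR were 0.171, 0.192 and 0.168.

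Complex IV held the member with the lowest p outside complexes I and II and the only member that was higher. Ndufa4 measured 336, 296 and 330.1 CPM in the IgG tumors, 446, 364 and 285 in the CD8L tumors, 274, 163 and 250.3 in the CD8H tumors and 519, 438 and 433 in the dNK tumors. All CD8H tumors lay below the 9 others (log2 fold change -0.73, SE 0.17, adjusted p = 0.0131), and its adjusted p from edgeR was 0.0398 without CD8H tumor 2. Cox6c measured 247, 219.9 and 247 CPM in the IgG tumors, 250.3, 265 and 228 in the CD8L tumors, 221, 180.1 and 213 in the CD8H tumors and 272, 299 and 262 in the dNK tumors, with CD8H tumor 1 just above IgG tumor 2 (log2 fold change -0.31, SE 0.091, adjusted p = 0.0311). Cox7a2, the isoform of non-muscle tissues, measured 165, 177 and 176 CPM in the IgG tumors, 291, 204 and 179.6 in the CD8L tumors, 175, 94.5 and 150.0 in the CD8H tumors and 279, 216 and 237 in the dNK tumors, with CD8H tumor 1 among the IgG tumors (log2 fold change -0.60, SE 0.19, adjusted p = 0.0418).

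Cox6a2, the heart and skeletal muscle isoform of subunit VIa, went the other way at a very low level. It measured 1.22, 1.64 and 1.45 CPM in the IgG tumors, 1.26, 0.668 and 1.67 in the CD8L tumors, 2.34, 2.91 and 2.08 in the CD8H tumors and 1.14, 0.546 and 0.940 in the dNK tumors. The CD8H tumors lay above the 9 others (log2 fold change 1.08, SE 0.30, adjusted p = 0.0231), on 374 counts over the 12 libraries. The call was lost without CD8H tumor 2 (log2 fold change 0.95, adjusted p = 0.101, edgeR) and without the filter on low counts (1.05, adjusted p = 0.0546), at folds close to the first. Of 6 striated muscle markers, 2 passed the filter and 0 were called. Their summary level, the mean log2 CPM of the list, was -1.80 to -1.10 in CD8H tumors and -2.77 to -1.57 elsewhere, and the part of muscle cells was not tested.

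Isoforms were compared per length, in the deposited FPKM, and the widely expressed form was far above its partner. Cox4i1 had a mean of 897 FPKM over the 12 tumors and its oxygen-sensitive partner Cox4i2 1.34. Cox6a1 had 509 and Cox6a2 2.21. Cox7a2 had 392, Cox7a2l 89.6 and the muscle form Cox7a1 1.03. Cox6b1 had 413 and the testis form Cox6b2 0.546, Cox7b had 527 and Cox7b2 0.0885, and Cox8a had 522 and Cox8b 0.183. Cox8c had 0 counts in all 12 libraries. Ndufa4 had 538 FPKM and Ndufa4l2 3.29. Cox7a2l measured 86.8 ± 9.06 FPKM in CD8H and 83.3 ± 1.45 in IgG tumors (SD, n = 3 each), and in the edgeR test of CD8H against the mean of the others it did not pass (log2 fold change -0.11, SE 0.13, adjusted p = 0.540).

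**Figure D3:**
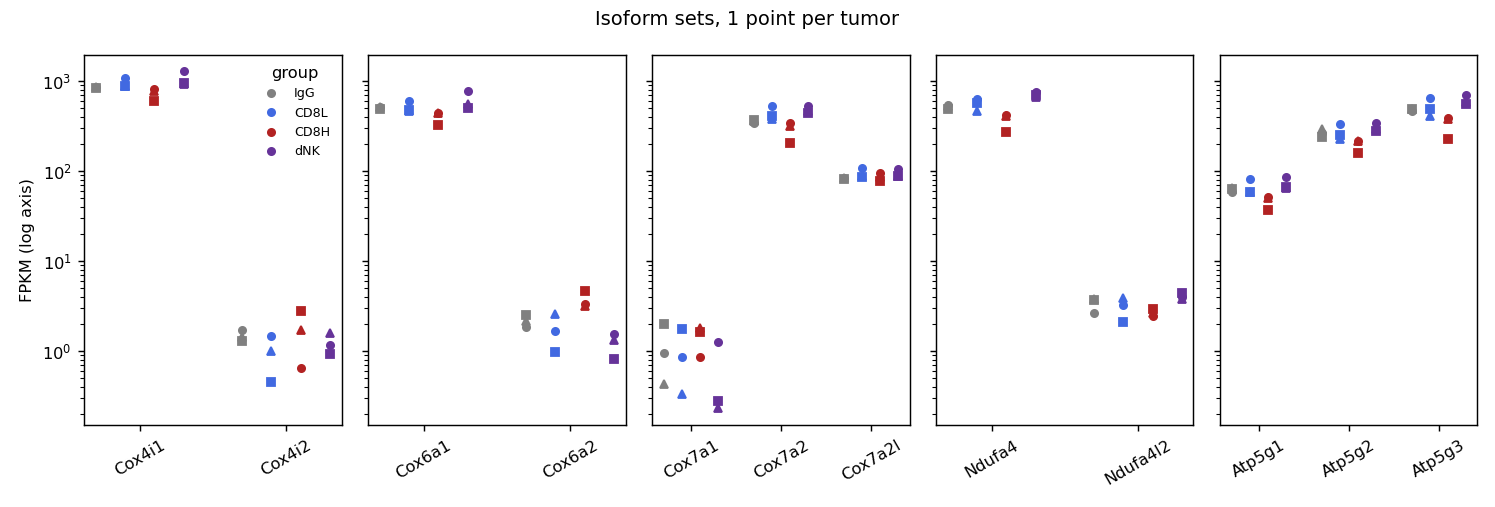
FPKM of isoform sets in each tumor on a log axis, colored by group, with circle, square and triangle for tumors 1, 2 and 3. Cox4i1, Cox6a1, Cox7a2 and Ndufa4 lie far above Cox4i2, Cox6a2, Cox7a1 and Ndufa4l2, and for Cox6a2 all CD8H tumors lie above the rest.

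Complex V genes that fell encode parts of the catalytic head, the stalk and the membrane ring. Atp5b, the catalytic beta subunit and the nuclear member with the highest FPKM (2799 over the 12 tumors), measured 2256, 2306 and 2526 CPM in the IgG tumors, 3627, 2546 and 2193 in the CD8L tumors, 2029.6, 1312 and 1962 in the CD8H tumors and 3364, 2643 and 2898 in the dNK tumors. Its CD8H tumors lay below all 9 others (log2 fold change -0.61, SE 0.20, adjusted p = 0.0467). Atp5a1, the alpha subunit of the head, measured 1441, 1663 and 1706 CPM in the IgG tumors, 2307, 1673 and 1490.2 in the CD8L tumors, 1241, 802 and 1262 in the CD8H tumors and 2252, 1775 and 1928 in the dNK tumors. It too did not overlap (log2 fold change -0.71, SE 0.19, adjusted p = 0.0216). Atp5j, a coupling factor of the stalk, measured 175, 143 and 161 CPM in the IgG tumors, 194, 192 and 157 in the CD8L tumors, 159, 109.6 and 145 in the CD8H tumors and 215, 203 and 191 in the dNK tumors (log2 fold change -0.39, SE 0.12, adjusted p = 0.0385).

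The genes Atp5g1, Atp5g2 and Atp5g3 encode the same mature ring subunit behind different import signals. Atp5g3, at 487 FPKM the highest of these, measured 354, 367 and 372 CPM in the IgG tumors, 561, 378 and 301 in the CD8L tumors, 309, 162 and 284 in the CD8H tumors and 585, 430.5 and 462 in the dNK tumors (log2 fold change -0.74, SE 0.22, adjusted p = 0.0345). CD8L tumor 3 lay within the range of its CD8H tumors. Atp5g2 and Atp5g1, at 259 and 61.7 FPKM, had log2 fold changes of -0.56 and -0.57 (adjusted p = 0.0443 and 0.0398, edgeR). Atp5d, of the central stalk, was also lower (log2 fold change -0.53). Atp5o, a stalk subunit, had CD8H tumors below all 9 others yet did not pass (log2 fold change -0.53, SE 0.19, adjusted p = 0.0644). In complex V too, 0 of the 7 calls remained without CD8H tumor 2.

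The pairs of groups share tumors, so their values stand side by side and are not independent. CD8H against IgG gave 0 called members, where 0.745% of all genes were called. Before adjustment (p of at most 0.05, edgeR), 6 of 102 tested members were lower and 0 higher, against 8.36% and 10.7% of all genes. DESeq2 also called 0, and limma voom with sample weights called 6 lower. The largest differences below 0 were those of Ndufs1 (log2 fold change -0.57, SE 0.18, adjusted p = 0.125) and Atp5a1 (log2 fold change -0.54, SE 0.23, adjusted p = 0.220). The median over the 89 nuclear members was -0.24, against 0.059 over all genes.

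CD8H against CD8L gave 4 of 102 tested members lower, a share not above the 5.16% of all genes called lower. They were Ndufaf4 (log2 fold change -0.73, SE 0.14, adjusted p = 0.0177), Ndufs1 (log2 fold change -0.93, SE 0.18, adjusted p = 0.0183), Sdha (log2 fold change -0.52, SE 0.13, adjusted p = 0.0345) and Ndufb5 (log2 fold change -0.66, SE 0.17, adjusted p = 0.0365). This count was 0 without CD8L tumor 1, CD8L tumor 2 or CD8H tumor 1, 2 without CD8H tumor 2, and 0 when only the CD8H and CD8L tumors were fitted. Omitting CD8L tumor 3 raised it to 30. The nuclear median was -0.45.

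CD8H against dNK was the widest contrast, with 54 nuclear members lower and 1 higher, against 14.6% of all genes lower and 15.7% higher. The smallest p-values were those of Ndufaf4 (log2 fold change -0.78, SE 0.14, adjusted p = 0.00337), Ndufs1 (log2 fold change -0.99, SE 0.18, adjusted p = 0.00379), Ndufa4 (log2 fold change -1.02, SE 0.21, adjusted p = 0.00582) and Sdha (log2 fold change -0.64, SE 0.13, adjusted p = 0.00640), and Cox6a2 was the one that was higher (log2 fold change 1.47, SE 0.40, adjusted p = 0.0196). By class, 4 of 4 complex II genes were lower, 7 of 8 in complex III, 13 of 17 in complex V, 16 of 29 supernumerary, 3 of 7 core and 3 of 8 assembly genes of complex I, and 8 of 16 in complex IV. The count of called members was 13 without dNK tumor 1, 15 without CD8H tumor 2, 18 when only those groups were fitted and 35 with the neuron covariate.

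Between the 3 groups with few CD8+ T cells, edgeR called no member. In dNK against IgG tumors, 0.0173% of all genes were called, and before adjustment 19 members were higher and 0 lower, against 5.39% and 9.56% of all genes. The nuclear median was 0.33. DESeq2 called 1 member higher and limma voom 13. Uqcrh had the largest difference above 0 (log2 fold change 0.70, SE 0.22, adjusted p = 0.213). CD8L against IgG called 0% of all genes, with 3 members higher and 0 lower before adjustment (1.19% and 0.999% of all genes) and a nuclear median of 0.19, and dNK against CD8L also 0%, with 1 member higher and 0 lower before adjustment (0.739% and 5.33%) and a nuclear median of 0.13. DESeq2 and limma voom called 0 members in both of these comparisons.

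Several mitochondrially encoded genes have identical or near-identical nuclear copies. A stretch of chromosome 1 holds annotated copies of 7 of the 13 genes. Aligned without gaps, the copies of mt-Co2, mt-Atp6, mt-Co3, mt-Nd4l and mt-Nd4 had 0 mismatches over 681, 678, 783, 294 and 876 bases, that of mt-Nd3 had 1 over 345, and that of mt-Co1 6 over the 492 bases it covers. The stretches below, from the GENCODE transcripts on GRCm38, show the start of a gene whose copy is identical and of one whose copy differs at a single base. Capitals mark the mismatch T3C, with positions counted from 1 at the first base of mt-Nd3.
mt-Co2 (chrMT:7013-7072, + strand): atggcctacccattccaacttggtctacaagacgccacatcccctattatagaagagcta
Gm28661 (chr1:24615506-24615565, - strand): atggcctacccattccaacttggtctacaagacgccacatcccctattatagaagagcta
mt-Nd3 (chrMT:9459-9518, + strand): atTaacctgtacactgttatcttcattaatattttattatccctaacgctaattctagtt
Gm28438 (chr1:24613060-24613119, - strand): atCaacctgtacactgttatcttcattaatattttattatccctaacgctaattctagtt

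Reads from such stretches fit both places. Of all 50-base stretches of a gene, 100% for mt-Co2, 99.9% for mt-Co3, 99.5% for mt-Atp6, 98.8% for mt-Nd4l and 98.0% for mt-Nd3 also occurred in another annotated gene. The share was 62.2% for mt-Nd4, 51.1% for mt-Co1, 8.19% for mt-Nd2, 7.61% for mt-Nd5 and 0% for mt-Nd1, mt-Nd6, mt-Cytb and mt-Atp8. On the same strand mt-Atp8 overlaps mt-Atp6, mt-Atp6 overlaps mt-Co3 and mt-Nd4l overlaps mt-Nd4. Mean FPKM over the 12 tumors was 7307 for mt-Co1, 3919 for mt-Nd1, 3069 for mt-Cytb, 1603 for mt-Nd2, 1443 for mt-Nd6, 1303 for mt-Nd5 and 1046 for mt-Nd4. It was only 108 for mt-Atp6, 77.3 for mt-Co2, 42.4 for mt-Co3, 21.0 for mt-Nd3, 18.6 for mt-Nd4l and 10.2 for mt-Atp8. The rows of the copies held 56.0% of the summed counts of mt-Co2 and its copy, 50.6% for mt-Atp6, 50.8% for mt-Co3, 64.0% for mt-Nd3 and 56.3% for mt-Nd4l, but 0.237% for mt-Co1 and 1.03% for mt-Nd4. Levels of the low genes are therefore uncertain.

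**Figure D4:**
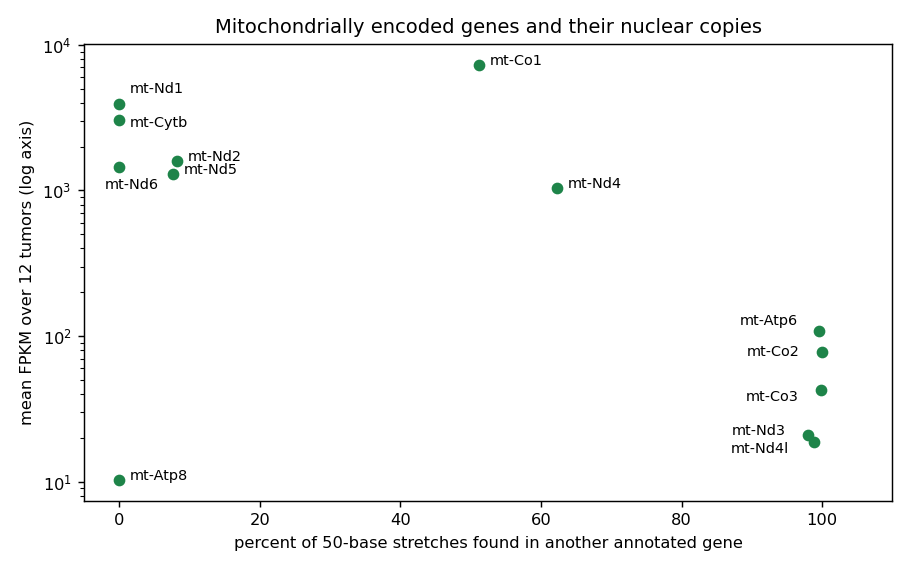
Mean FPKM over the 12 tumors (log axis) of each mitochondrially encoded gene against the percent of its 50-base stretches found in another annotated gene. The 5 genes with 98.0 to 100% shared stretches lie at 18.6 to 108 FPKM, and all others but mt-Atp8 lie above 1000.

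No mitochondrially encoded gene was called in any of the 7 comparisons by edgeR. With the replicate number as a block 2 were called higher in CD8H against the mean of the others, and 66 nuclear members were lower. Calls over all genes in that fit were 5797, against 4551 without the block. Without the block, before adjustment there were 0 mitochondrial genes in the 4 comparisons with CD8H, 0 in CD8L against IgG, and 1, mt-Atp6, in each of the dNK comparisons (log2 fold change 0.40, SE 0.13, adjusted p = 0.216 against IgG). In CD8H against the mean of the others DESeq2 and limma voom also called 0. Summing each gene with its copy gave 0 as well, with log2 fold changes between -0.0075 and 0.37 over the 7 sums.

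The more abundant mitochondrial genes showed wide spread within groups. The complex I gene mt-Nd1, a core subunit near the ubiquinone site, measured 2546, 4230.2 and 4353 CPM in the IgG tumors, 3259, 4168 and 3814 in the CD8L tumors, 2263, 3932 and 3563 in the CD8H tumors and 3245, 5244 and 4265 in the dNK tumors (log2 fold change -0.26, SE 0.24, adjusted p = 0.424). Genes of proton-pumping subunits followed, mt-Nd2 at 1087, 1966 and 1954 CPM in the IgG tumors, 1109, 1655 and 1853 in the CD8L tumors, 1095, 2467 and 1808 in the CD8H tumors and 1168, 2004 and 1619 in the dNK tumors (log2 fold change 0.16, SE 0.28, adjusted p = 0.674) and mt-Nd5 at 1711, 3094 and 2658 CPM in the IgG tumors, 1447, 2619.6 and 2607 in the CD8L tumors, 1565, 3153 and 2505 in the CD8H tumors and 1687, 2877 and 2350.2 in the dNK tumors (log2 fold change 0.043, SE 0.28, adjusted p = 0.916). In each of these genes tumor 1 was the lowest of every group. The light-strand gene mt-Nd6 measured 534, 894 and 764 CPM in the IgG tumors, 449, 802 and 830.5 in the CD8L tumors, 645, 1079 and 872 in the CD8H tumors and 526, 823 and 686 in the dNK tumors (log2 fold change 0.30, SE 0.23, adjusted p = 0.329). It overlaps mt-Nd5 on the opposite strand, and the strand setting of the counting is not given in the sources used here. Cytochrome b, mt-Cytb, the only mitochondrial subunit of complex III, measured 2533, 4145 and 3897 CPM in the IgG tumors, 2333, 3679 and 3735 in the CD8L tumors, 2496, 4639 and 3532 in the CD8H tumors and 2820.0, 4564 and 3453 in the dNK tumors (log2 fold change 0.040, SE 0.26, adjusted p = 0.915). The catalytic subunit of complex IV, mt-Co1, measured 8696, 13907 and 12193 CPM in the IgG tumors, 7792, 11984 and 12385 in the CD8L tumors, 8892, 13484 and 12367 in the CD8H tumors and 8272, 13039 and 11517 in the dNK tumors (log2 fold change 0.064, SE 0.27, adjusted p = 0.868). Its groups overlapped.

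The other mitochondrial genes had log2 fold changes of 0.95 (mt-Nd3, SE 0.46, adjusted p = 0.142), 0.34 (mt-Co2), 0.30 (mt-Nd4), 0.26 (mt-Co3), 0.16 (mt-Nd4l), 0.058 (mt-Atp6) and -0.023 (mt-Atp8) in this edgeR test. For mt-Nd3 the sum with its copy gave 0.24 (SE 0.23, adjusted p = 0.413).

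The tumor that was low in nuclear genes was not low in mitochondrial ones. CD8H tumor 2 had a median of 1.29 times the 12-tumor median over the 13 mitochondrial members and was the highest of the 12 tumors for 8 of them. The low tumors were the first of each group. Tumor 1 was the lowest of its group for 13 mitochondrial members in IgG, 12 in CD8L, 12 in CD8H and 11 in dNK, at medians of 0.628, 0.647, 0.736 and 0.741, against 0.959 to 1.29 in the other 8 tumors. The labels name no batch behind a replicate number. Over mt-Nd1, mt-Nd2, mt-Nd5, mt-Nd6 and mt-Cytb, the mean log2 CPM less that of the 89 nuclear members was 3.56 in CD8L tumor 1 and 3.65 in dNK tumor 1, the lowest, and 5.51 in CD8H tumor 2, the highest. By group it was 4.54 ± 0.48 in IgG, 4.30 ± 0.65 in CD8L, 4.80 ± 0.73 in CD8H and 4.24 ± 0.54 in dNK tumors (SD, n = 3 each), so the groups overlapped.

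Neuron marker means also differed between tumors of the same group. They were 2.97, 6.13 and 5.58 in the IgG tumors, 2.67, 2.99 and 5.61 in the CD8L tumors, 2.93, 7.12 and 4.64 in the CD8H tumors and 2.58, 2.49 and 4.19 in the dNK tumors, on the log2 CPM scale. Tumor 1 of each group, low in mitochondrial genes, had a low neuron mean (2.97, 2.67, 2.93 and 2.58). CD8L tumor 2 and dNK tumor 2 also had low neuron means (2.99 and 2.49) and were not low in mitochondrial genes. Tumors with neuron means of 4.19 to 7.12 were not low in mitochondrial genes either. The part of brain tissue in the mitochondrial values was not tested.

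**Figure D5:**
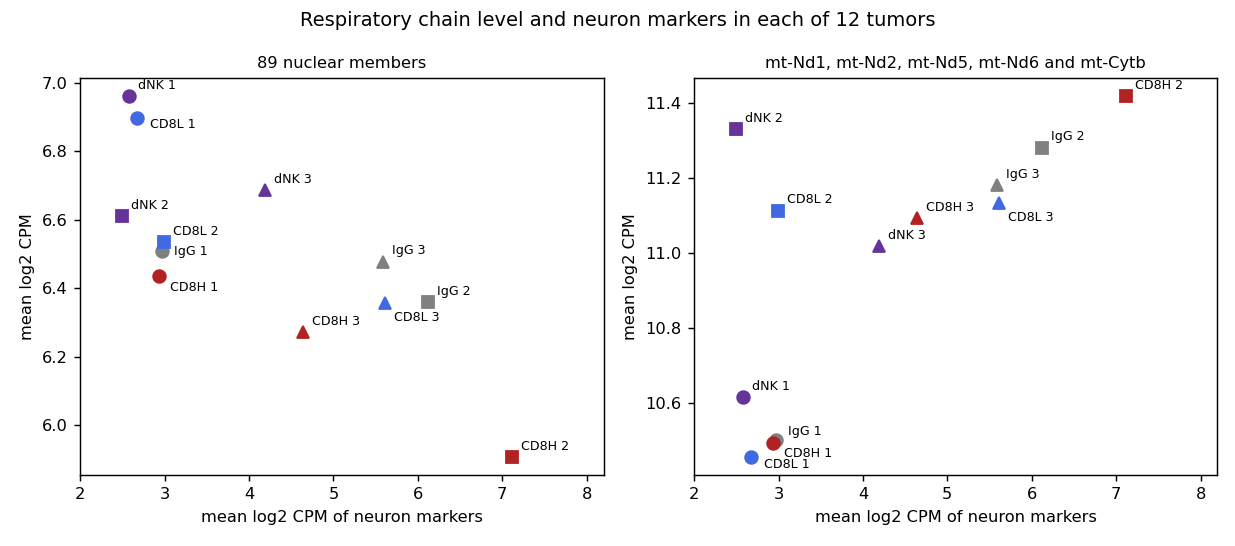
Mean log2 CPM of the 89 tested nuclear members (left) and of 5 mitochondrial genes with little or no copy sequence (right) against the mean log2 CPM of 19 neuron markers, 1 point per tumor, colored by group. CD8H tumor 2 has the highest neuron mean (7.12), the lowest nuclear mean (5.91) and the highest mitochondrial mean (11.4).

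What the nuclear genes shared in sequence was examined in promoters, since these genes lie on 19 chromosomes. RefSeq promoters (GRCm38.p6, 250 bases before to 50 after the start) were matched by symbol for 74 of the 94. Nuclear respiratory factor 1 (NRF1), ETS factors such as GABP, and YY1 are known regulators of these genes, and their motifs were searched as letters on both strands. A gene was counted if any of its promoters held the motif. The NRF1 motif (GCGCA, any base, GCGC) was in 19 of 74 members (25.7%) and in 5.19% of 27025 genes. These genes were not matched to the members for base content or gene type. CCGGAAG, the core of the ETS motif, was in 18 of 74 (24.3%) against 9.93%. AAGATGGCG, the YY1 motif, was in 8 of 74 (10.8%) against 1.64%. The ETS motif ends in the AAG with which the YY1 motif begins, so a run of letters can hold both. Of the 25 matched members lower in CD8H tumors, 6 held the NRF1 motif (24.0%), 7 the ETS motif (28.0%) and 1 the YY1 motif. A match is a run of letters and no evidence of binding.

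The windows below are from the 3 lower members with the smallest p that hold, wholly upstream of the start, the NRF1 motif (the Ndufaf4, Sdha and Sdhd promoters) or the ETS motif (the others, not repeating a gene). Capitals mark motif letters in either orientation, so that CTTCCGG is the ETS motif read on the other strand. The Sdha window holds a pair of NRF1 motifs, the nearer one ending at the start site.
Ndufaf4 promoter (chr4:24897925-24898024, + strand): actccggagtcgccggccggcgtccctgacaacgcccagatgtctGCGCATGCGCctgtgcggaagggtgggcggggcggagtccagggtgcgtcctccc
Sdha promoter (chr13:74350241-74350295, - strand): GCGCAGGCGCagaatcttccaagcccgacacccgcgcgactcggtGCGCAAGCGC
Sdhd promoter (chr9:50603874-50603973, - strand): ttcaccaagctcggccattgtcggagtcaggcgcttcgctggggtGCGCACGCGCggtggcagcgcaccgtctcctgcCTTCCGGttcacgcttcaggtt
Ndufb6 promoter (chr4:40279602-40279671, - strand): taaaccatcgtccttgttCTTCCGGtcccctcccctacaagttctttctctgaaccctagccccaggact
Atp5j promoter (chr16:84834986-84835082, - strand): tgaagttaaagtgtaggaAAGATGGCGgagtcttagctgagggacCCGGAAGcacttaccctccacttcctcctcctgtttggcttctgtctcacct
Uqcrh promoter (chr4:116075071-116075125, - strand): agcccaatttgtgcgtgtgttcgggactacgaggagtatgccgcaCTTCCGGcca

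Other genes of the pathway, from lists chosen with earlier results of these data known, were counted in the same test of CD8H against the mean of the others. Cyc1, cytochrome c1 of complex III, measured 326, 314 and 319.6 CPM in the IgG tumors, 520.0, 346 and 296 in the CD8L tumors, 262, 154 and 254 in the CD8H tumors and 533, 363 and 413 in the dNK tumors (log2 fold change -0.76, SE 0.21, adjusted p = 0.0239), while Cycs, cytochrome c, did not pass. Of 38 further assembly factors tested, 8 were lower and 0 higher, against 11.9% and 14.4% of all genes. They were Acad9, Uqcc1, Cox10, Cox15, Coa5, Taco1, Atpaf1 and Tmem70, with Tmem70, needed to assemble ATP synthase, the lowest p of the list (log2 fold change -0.62, SE 0.11, adjusted p = 0.00240). Both ADP and ATP carriers were lower, Slc25a4 at -0.58 and Slc25a5 at -0.68.

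Of 11 tested genes that copy or transcribe mitochondrial DNA or handle its RNA, 6 were lower (Tfam, Polrmt, Tfb2m, Lrpprc, Twnk and Polg) and 0 higher, against the same 11.9% and 14.4% of all genes. The other 5 did not pass. Polg, the catalytic subunit of the mitochondrial DNA polymerase, measured 114, 104 and 111 CPM in the IgG tumors, 112, 106 and 96.9 in the CD8L tumors, 74.7, 77.9 and 83.7 in the CD8H tumors and 123, 119.9 and 113 in the dNK tumors. CD8H tumors lay below all others, and here CD8H tumor 2 was not the lowest (log2 fold change -0.49, SE 0.071, adjusted p = 0.00120). Polrmt, the mitochondrial RNA polymerase, measured 54.9, 50.8 and 51.0 CPM in the IgG tumors, 65.4, 59.1 and 46.9 in the CD8L tumors, 38.3, 33.1 and 39.7 in the CD8H tumors and 68.3, 60.9 and 65.4 in the dNK tumors. Its CD8H tumors were again below the rest (log2 fold change -0.64, SE 0.11, adjusted p = 0.00228). Of 8 regulators tested, 2 were lower, against 11.9% of all genes. They were Gabpa, the DNA-binding part of GABP, and Esrra, a nuclear receptor that drives oxidative genes. Esrra measured 72.1, 78.3 and 74.0 CPM in the IgG tumors, 116, 76.5 and 66.4 in the CD8L tumors, 56.8, 41.6 and 50.1 in the CD8H tumors and 122, 89.0 and 105 in the dNK tumors (log2 fold change -0.83, SE 0.17, adjusted p = 0.00639).

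Some members share bases with other genes, which the counting may have split. More than 50% of the 50-base stretches occurred in another annotated gene for Atp5l (84.8%) and Atp5o (50.3%) among nuclear members with counts. For Atp5o the row sharing most was the extra row of the same name, which had 0 counts. Of the 94 nuclear members, 46 had 0% shared. Ndufs1 overlaps Eef1b2, Ndufb5 overlaps Mrpl47, Cox6c overlaps Vps13b, Ndufaf2 overlaps Smim15 and Atp5j overlaps Gabpa, each on the opposite strand, so their counts are uncertain to that degree. The same holds for Ndufa4l2, which had 620 counts and overlaps Shmt2, with 62225, on the opposite strand. It also holds for Cox6a2, the only member called higher, which had 374 counts and overlaps Itgad, with 37, on the opposite strand.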

How the data were processed

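Per the submitters' processing notes and the study's methods, STAR 2.6.1d (GRCm38.p6), StringTie 1.3.3b and featureCounts 1.5.0-p3 were run on read pairs. The authors deposited raw read counts per gene and a table of FPKM values. Which strand setting, treatment of multi-mapping reads and annotation release they used is not given in the sources used here. The FPKM deposited by the authors followed counts per total counts and a fixed length per gene, and were used only for levels between genes.

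Counts were tested in edgeR 4.0.16 (R 4.3.3): filterByExpr, TMM, 1 fit of 4 group means over 12 libraries, quasi-likelihood F test, 2-sided, Benjamini-Hochberg over 17320 genes. The unadjusted threshold was 0.05 as well. Log2 CPM used a prior count of 2. Group assignment came from the sample labels. Alternatives used DESeq2 1.42.0 and limma 3.58.1. Scripts were tested on simulated data. Replicates were separate mice. Sequence shares used GENCODE M21 transcripts. Cox6b2, Cox7b2 and Cox8b had too few counts to test.

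Members and lists were chosen with earlier results of these data known. Named were all mitochondrial members, complex II, up to 3 called members per class and direction by p, up to 4 per pair of groups, isoform sets and the highest and lowest FPKM per complex. Other called members, and genes named for overlap, were named after their values were seen.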

Additional observations from a re-analysis of the deposited data

How the results depend on the processing

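No named member changed direction under a call. The 57 values followed were those of tested named members and the class medians. A median has no threshold and counted as kept where it moved by less than the SD within groups, which inflates the kept cases. Leaving out 1 tumor at a time kept the call or median in 591 cases, lost a call in 85 and gained one in 8. The other alternatives kept the call or median in 487, lost a call in 9 and gained one in 17. With 3 tumors a group, 1 tumor decided many calls, above all CD8H tumor 2.

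The count of called members (31 in CD8H against the mean of the others) was 62 with limma voom, where calls over all genes went from 4551 to 7099. CD8H against IgG (0) gave 5 with the neuron markers as covariate and 6 with limma voom. CD8H against CD8L (4) gave 10 with that covariate, 0 when only those groups entered the fit, 12 with DESeq2 and 28 with limma voom. CD8H against dNK (55) gave 35 with the covariate and 18 with only those groups. Counts for dNK against IgG (0) were 1 with only those groups, 1 with DESeq2 and 13 with limma voom. Leaving out 1 tumor gave 4 to 60 for CD8H against the mean of the others, 0 to 30 against CD8L and 13 to 70 against dNK, and 0 in the remaining 4 comparisons. RLE scaling, scaling without mitochondrial genes and no filter on low counts kept every count within 1.5 times. Chosen after the data were seen, coding the 9 other tumors as a single group gave 23 and summing copies 31.

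The labels do not say what a replicate number stands for. Deviations from the group means were correlated between tumors of different groups. Same-numbered tumors had r from -0.36 to 0.73, over 0.1 in 11 of 18 pairs, and 20 of 36 best matches had the same number. Differently numbered tumors had r from -0.73 to 0.70, so the ranges overlapped. With the replicate number as a block, called members were 69 in CD8H against the mean of the others (66 nuclear members lower, 1 nuclear and 2 mitochondrial members higher), 32 against CD8L and 72 against dNK, and 0 in the other 4 comparisons. Calls over all genes in the first of these were 5797, against 4551 without the block.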
